A study of Mus musculus with 34 samples.

Results

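Interferon response genes are the genes that a cell switches on when interferon binds its receptors, and 40 of them were followed here in the brains of mice that lack HDAC1 (histone deacetylase 1), carry Alzheimer's disease transgenes, or both. The 40 were taken by their gene symbols, not by a rule on their measured values, although earlier results of these data were known when the list was chosen. All 40 were found among the 23951 genes of the deposited expression files. Of the 34 samples listed for the study, 27 RNA sequencing libraries, each labelled as a separate mouse, were used. The hippocampal libraries came from male mice with loxP sites in both copies of Hdac1 (Hdac1f/f), which every group shared. They comprised 4 controls, 5 Hdac1 cKO mice that also carried Nestin-Cre, 6 mice with the 5XFAD transgenes, and 5 compound mice with Nestin-Cre and 5XFAD (Hdac1 cKO; 5XFAD). Controls and Hdac1 cKO mice were 13 to 14 months old, and 5XFAD and compound mice were 13 months old. The remaining 7 libraries were made from GFAP+ nuclei, sorted from cortex for the astrocyte protein GFAP, of 3 control and 4 Hdac1 cKO mice aged 13 months. Nestin-Cre acts in the lineage of neurons and astrocytes and leaves Hdac1 in microglia, and the 5XFAD transgenes, which carry familial Alzheimer's disease mutations, are expressed from the neuronal Thy1 promoter.

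Type I interferons bind a receptor whose kinases activate a complex that contains STAT2 and IRF9. This complex binds a DNA element called the interferon-stimulated response element (ISRE), while interferon gamma works through another element, the gamma-activated sequence (GAS). The genes switched on in this way encode sensors of foreign nucleic acid, proteins that block viral entry, translation or budding, a small ubiquitin-like modifier (ISG15) with its enzymes, and GTPases that attack membranes around intracellular microbes. In the brain microglia are a main source of these transcripts, and astrocytes and endothelial cells can also make them.

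Expression was measured as FPKM, the fragments of a gene scaled to its transcript's length and to the size of the library, and the number of fragments behind a value is not given. From the steps between the smallest values, the hippocampal libraries had 0.754 to 2.35 times the depth of the first control. For 13 of the 40 members, every hippocampal value lay within 0.1 of a whole multiple of the smallest step, and the median number of steps was 4 for Irf7 and 6 for Isg15, so the values of such genes rest on few fragments. Hdac1 was listed between 5.91 and 10.7 FPKM in control and between 2.36 and 3.03 FPKM in Hdac1 cKO hippocampi, and between 1.15 and 2.52 FPKM in compound hippocampi. In the GFAP+ nuclei the groups overlapped for Hdac1, at 9.91 to 22.3 FPKM in controls and 5.80 to 11.5 FPKM in Hdac1 cKO mice. The hippocampal libraries also differed in choroid plexus RNA, the epithelium beside the hippocampus that secretes cerebrospinal fluid and is marked by Ttr. Ttr reached 2000 FPKM or more in 3 of 4 control mice, 4 of 6 5XFAD mice and 1 of 5 compound mice, and in none of the 5 Hdac1 cKO mice. Compound mouse 4 stood apart in another way, with the highest value of all 20 hippocampi for 16 of the 40 members, while 5XFAD mouse 1 held the highest value for 12. Counts of members are given with and without these 2 libraries where a count changed. T cell markers (Cd3e and 5 others) summed to between 0.51 and 3.52 FPKM in the hippocampi.

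Sequences upstream of the transcription start were examined because the members were grouped for their common control by interferon, which the ISRE and GAS elements carry out. RefSeq promoters of the GRCm38.p6 build were matched by symbol for 30 of the 40 members, and 10 had no entry (Ifi27l2a, Iigp1, Mx1, Mx2, Oas2, Parp14, Parp9, Rtp4, Usp18 and Zbp1). The 250 bases before each start were searched on both strands for the core of the ISRE, written GAAANNGAAA where N is any base, and for the GAS, written TTCNNNGAA. The ISRE core was found for 12 of the 30 members, against 936 of all 27025 genes of the table (3.46%). GAS matches were found for 7 of the 30, against 2197 of all genes (8.13%). The windows of the 6 members on which the following comparisons turn most are printed from 5′ to 3′, with the matches in capitals.
Irgm1: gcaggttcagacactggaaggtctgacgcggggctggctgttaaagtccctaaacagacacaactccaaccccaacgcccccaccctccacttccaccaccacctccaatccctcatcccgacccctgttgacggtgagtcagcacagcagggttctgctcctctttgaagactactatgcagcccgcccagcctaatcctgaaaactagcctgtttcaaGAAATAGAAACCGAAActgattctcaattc
Igtp: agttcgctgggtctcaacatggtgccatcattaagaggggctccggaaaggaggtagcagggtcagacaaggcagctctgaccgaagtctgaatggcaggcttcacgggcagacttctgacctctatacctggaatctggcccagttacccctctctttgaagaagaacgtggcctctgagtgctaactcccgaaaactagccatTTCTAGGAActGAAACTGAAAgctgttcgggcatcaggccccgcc
Irf8: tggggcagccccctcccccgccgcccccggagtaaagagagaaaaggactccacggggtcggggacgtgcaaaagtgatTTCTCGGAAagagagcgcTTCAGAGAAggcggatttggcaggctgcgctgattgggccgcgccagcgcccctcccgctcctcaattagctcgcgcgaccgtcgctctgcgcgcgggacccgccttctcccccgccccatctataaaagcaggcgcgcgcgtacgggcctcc
Ifit3: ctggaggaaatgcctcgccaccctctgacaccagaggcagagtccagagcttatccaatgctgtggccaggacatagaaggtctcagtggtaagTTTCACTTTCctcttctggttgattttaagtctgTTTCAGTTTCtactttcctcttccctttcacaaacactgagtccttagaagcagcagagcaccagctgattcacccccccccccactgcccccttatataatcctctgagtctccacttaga
Bst2: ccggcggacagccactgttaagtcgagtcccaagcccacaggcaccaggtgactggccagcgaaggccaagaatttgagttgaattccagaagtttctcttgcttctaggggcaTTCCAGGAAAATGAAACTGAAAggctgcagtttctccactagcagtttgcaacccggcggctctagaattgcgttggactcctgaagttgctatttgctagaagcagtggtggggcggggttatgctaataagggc
Ifitm3: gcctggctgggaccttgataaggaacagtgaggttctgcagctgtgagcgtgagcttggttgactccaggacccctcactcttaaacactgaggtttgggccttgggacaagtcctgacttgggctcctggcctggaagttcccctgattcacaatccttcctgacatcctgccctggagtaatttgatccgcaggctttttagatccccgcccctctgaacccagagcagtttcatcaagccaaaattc
Irgm1 (chr11:48871421-48871670, minus strand) holds 2 overlapping ISRE cores that begin 30 and 24 bases before the start, and Igtp (chr11:58199306-58199555, plus strand) holds a GAS and, next to it, an ISRE core at 34 bases. Irf8 (chr8:120736108-120736357, plus strand; the first of its 2 promoters in the table) holds 2 GAS matches and no ISRE core. Ifit3 (chr19:34583279-34583528, plus strand) holds 2 separate ISRE cores at 156 and 122 bases. In Bst2 (chr8:71537473-71537722, minus strand) a GAS runs into 2 overlapping ISRE cores, so that the capitals form a single block. Ifitm3 (chr7:141010745-141010994, minus strand) holds neither. A match is a description of letters in these windows, and its absence says only that the letters are not there.

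The 40 members as a group were lowest in Hdac1 cKO hippocampi and highest in the hippocampi with 5XFAD. The mean log2(FPKM + 1) over the 40 was 1.77 ± 0.11 (SD, n = 4) in controls, 1.43 ± 0.04 (n = 5) in Hdac1 cKO, 2.09 ± 0.22 (n = 6) in 5XFAD and 2.11 ± 0.34 (n = 5) in compound mice. The 5 Hdac1 cKO mice lay between 1.40 and 1.48, below the lowest of the 15 other mice at 1.65. Compound mice spread from 1.80 to 2.67, the top being compound mouse 4. The number of members at 1 FPKM or more was 21 to 24 in Hdac1 cKO mice, 26 to 30 in controls, 28 to 35 in 5XFAD mice and 28 to 36 in compound mice. In the GFAP+ nuclei, a different tissue and library kit, the mean was 2.38 ± 0.07 (n = 3) in controls and 2.14 ± 0.10 (n = 4) in Hdac1 cKO mice, and the groups did not overlap (2.30 to 2.44 against 1.99 to 2.20). These means describe the list and were not tested.

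**Figure D1:**
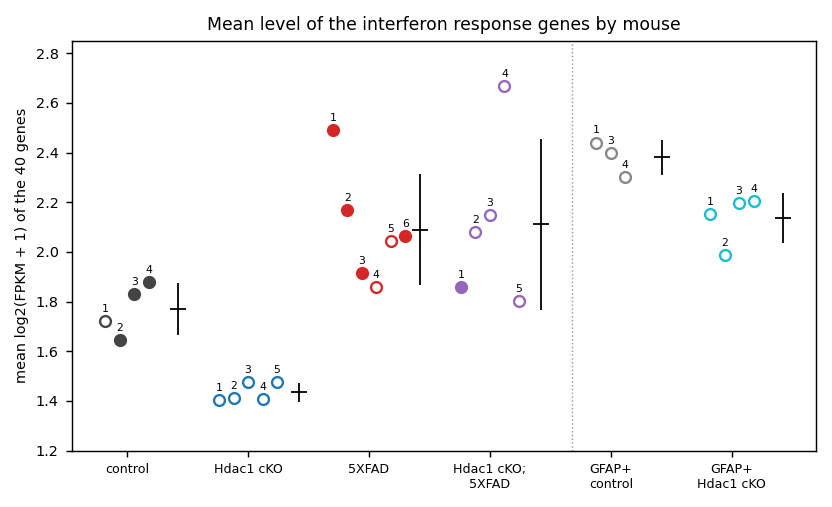
Mean log2(FPKM + 1) over the 40 interferon response genes in each of the 27 libraries, by group. Numbers beside points are mouse numbers, filled points are libraries with Ttr of 2000 FPKM or more, and black crosses with bars give the mean ± SD. The 5 Hdac1 cKO hippocampi lie between 1.40 and 1.48, below every other hippocampus.

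The members are described here by role. Of the 5 transcription factors, Irf8 varied most plainly by group, while Irf1 was at 2.16 ± 0.99 FPKM in controls (SD, n = 4) and 2.92 ± 0.98 FPKM in 5XFAD mice (n = 6), and Stat2 was at 3.53 ± 0.32 and 4.30 ± 1.25 FPKM. Among the 11 sensors and RNA-binding antiviral proteins, Adar, the RNA editing enzyme, and Eif2ak2, the kinase PKR that stops translation, were nearly even, with Adar at 9.45 ± 0.97 FPKM in controls and 8.82 ± 1.11 FPKM in compound mice (n = 5). Oas2, an activator of RNase L, was listed at 0 in 3 of 4 controls and in 5 of 6 5XFAD mice. The 13 membrane, replication and other effectors included Ifi27l2a, which had the widest range of the members on the log2(FPKM + 1) scale, from 1.89 FPKM in an Hdac1 cKO mouse to 326 FPKM in compound mouse 4. Mx1 and Mx2, dynamin-like antiviral GTPases, averaged under 0.6 FPKM in each hippocampal group and could not be tested in any hippocampal comparison. The same held for Oas2 and Parp14, a mono-ADP-ribosyltransferase, and for Irf7 and Zbp1 in Hdac1 cKO against control, while in GFAP+ nuclei Zbp1, Oas2 and Mx1 were below the filter.

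**Figure D2:**
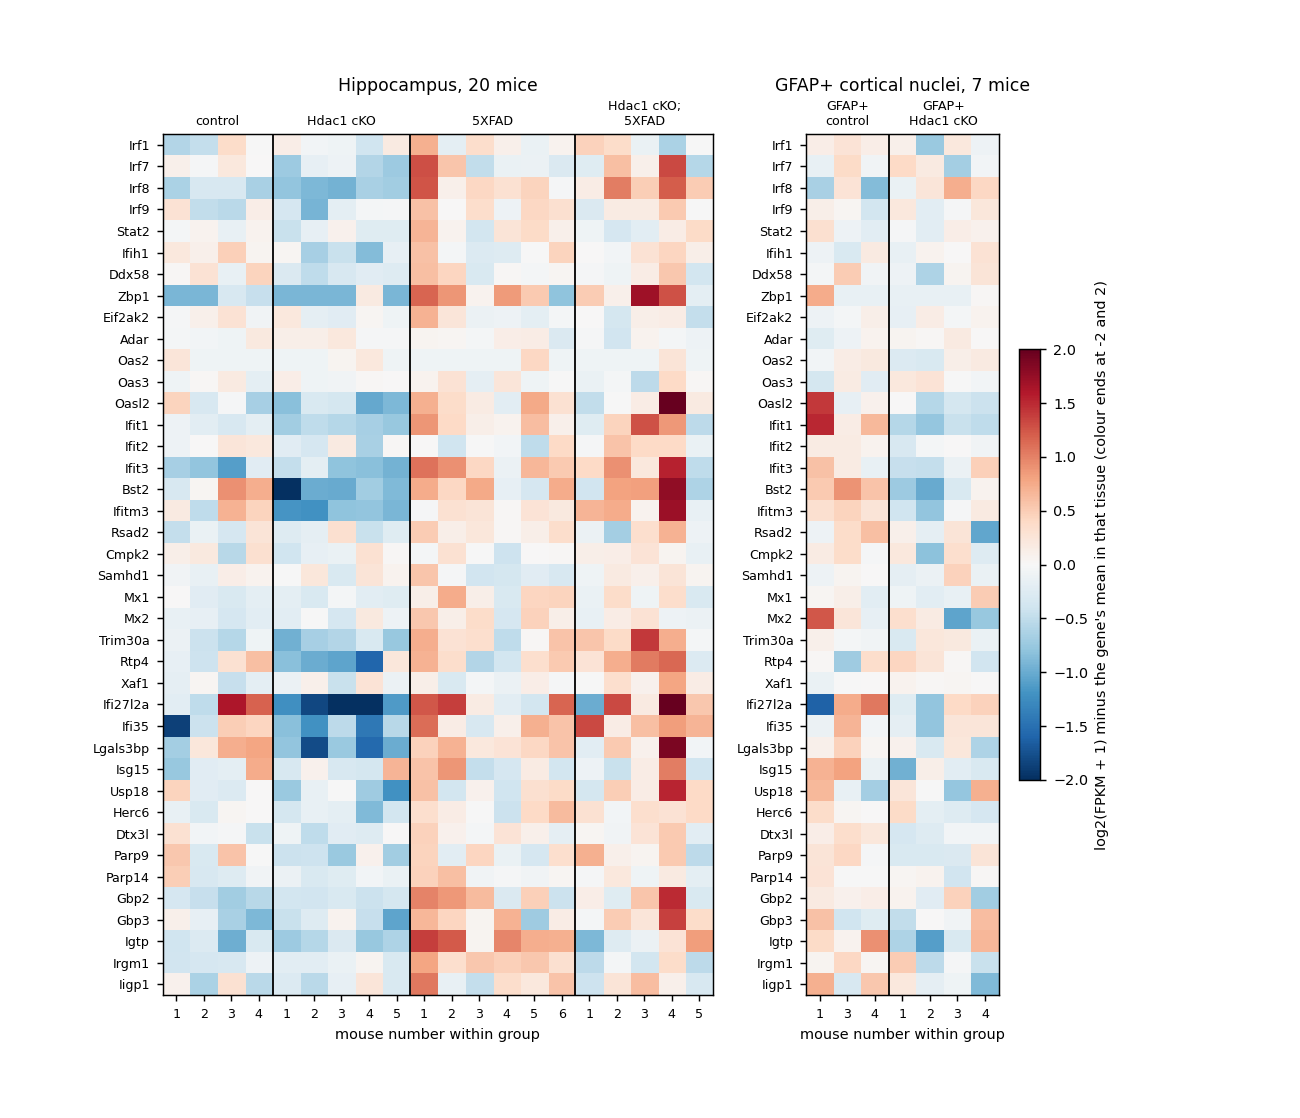
Heat map of the 40 members (rows, ordered by role) in the 20 hippocampal and 7 GFAP+ libraries (columns, by group), coloured by the log2(FPKM + 1) of each member relative to its mean within the tissue. Hdac1 cKO hippocampi are mostly below the mean, and compound mouse 4 and 5XFAD mouse 1 hold the highest hippocampal values for 16 and 12 members.

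To ask what 5XFAD did to these genes in mice with HDAC1, 5XFAD mice were compared with controls. The immunity-related GTPases Irgm1 and Igtp and the RNA-binding protein gene Ifit3 were higher in all 6 5XFAD mice than in any control. A gene was called differentially expressed (DEG) where limma gave an unadjusted p under 0.05 and the groups differed 1.5-fold or more on the log2(FPKM + 1) scale, which understates changes of low genes. By this rule 7 of the 40 members were DEGs, all higher, against 1.72% of all 14402 genes tested, and 3 had an adjusted p under 0.05, against 0.667% of all genes (1 member without control mouse 3). No member was lower, where 1.23% of genes were lower DEGs and 0.0417% were lower with an adjusted p under 0.05. The 36 members that reached the filter of 0.5 FPKM had a median log2 change of 0.18, beside -0.01 for all genes.

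Irgm1, which guards the cell's own membranes against the other GTPases of its family, was at 2.58, 2.70, 2.72 and 3.31 FPKM in controls and between 4.79 and 7.06 FPKM in 5XFAD mice (median 5.57). The groups did not overlap, and the difference was 0.78 ± 0.13 on the log2 scale (SE, limma adjusted p = 0.0126). Igtp, also called Irgm3, was at 1.69, 1.92, 0.797 and 1.84 FPKM in controls and between 2.66 and 8.22 FPKM in 5XFAD mice (median 5.37). The lowest 5XFAD mouse was above the highest control, and the difference was 1.33 ± 0.24 (limma adjusted p = 0.0199). Both genes carry the ISRE core within 34 bases of their start in the printed windows. Ifit3, which binds IFIT1 on viral RNA, was at 1.88, 1.64, 1.13 and 2.91 FPKM in controls and between 3.23 and 8.72 FPKM in 5XFAD mice (median 5.91). Its groups did not overlap either, at 1.28 ± 0.23 (limma adjusted p = 0.0192). Irf8, a transcription factor of the myeloid lineage to which microglia belong, was at 1.87, 2.56, 2.54 and 1.83 FPKM in controls and between 3.38 and 9.66 FPKM in 5XFAD mice (median 4.69). All 6 mice were above the controls, and the difference of 0.90 ± 0.22 had a limma adjusted p of 0.110. Without 5XFAD mouse 1, the highest of its group for these 4 genes, the differences were 0.72 for Irgm1, 1.23 for Igtp, 1.17 for Ifit3 and 0.73 for Irf8, and 6 members were DEGs, Gbp3 having lost its call.

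The DEGs were unevenly spread over the roles. Of the 5 interferon-inducible GTPases 4 were DEGs (Irgm1, Igtp, Gbp2 and Gbp3), as were 1 of the 5 transcription factors (Irf8) and 2 of the 11 sensors (Ifit3 and the left-handed DNA and RNA sensor Zbp1). Zbp1 averaged 0.216 FPKM in controls (0 in 2 of 4) and 1.82 FPKM in 5XFAD mice, so that it reached the filter only through the group where it was high, and 6 of the 7 DEGs did not depend on this. None of the 13 effectors and none of the 6 members of the ISG15 and ADP-ribosylation group was a DEG. Of the effectors 2, Trim30a and Rsad2, had an unadjusted p under 0.05, where 1543 of all 14402 genes did. Gbp2 and Gbp3, guanylate-binding proteins, overlapped with the controls, at 0.89 ± 0.27 and 0.62 ± 0.28. The call of Gbp3 ended in 7 of the 10 fits that left out 1 mouse (0.45 to 0.80) and held without control mouse 1 or 2 or 5XFAD mouse 5. In all, 5 of 40 members lay wholly above the controls, against 1.92% of the genes tested. Microglial markers moved in the same direction. Of 10 markers (Aif1, Cx3cr1 and others) 6 were DEGs, all higher, and their sum was 157 to 192 FPKM in controls and 310 to 374 FPKM in 5XFAD mice, with no marker at 0. Of 7 astrocyte markers 1 was a higher DEG. In bulk tissue a larger number of cells and more RNA per cell cannot be told apart, and the part of microglial number in these changes was not tested. With only libraries under 2000 FPKM of Ttr, a set chosen after seeing the data that leaves 1 control and takes the spread from all groups, Irgm1 (0.88), Igtp (1.24), Irf8 (1.00) and Zbp1 (1.61) kept their call, Ifit3 (0.94) and Gbp2 (0.43) lost it, and Gbp3 was at -0.11. With the choroid plexus markers as a covariate 6 of the 7 kept their call, Gbp3 being lost, and 0 had an adjusted p under 0.05.

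The effect of 5XFAD was measured a second time in mice without HDAC1, by comparing compound with Hdac1 cKO mice, none of which is shared with the comparison of 5XFAD with controls. In both measurements the mice with 5XFAD were listed in a later block of sample numbers than those without it. The labels name no batch, and a difference between these blocks was not tested. In compound against Hdac1 cKO mice 18 of the 40 members were DEGs, all higher, against 2.94% of all 14195 genes tested, and 4 had an adjusted p under 0.05, against 1.42%. The latter count was 2 without Hdac1 cKO mouse 1 and 8 without compound mouse 5. The 18 included 7 of the 13 effectors, 4 of the 11 sensors, 3 of the 6 ISG15 and ADP-ribosylation genes, 2 of the 5 transcription factors and 2 of the 5 GTPases. None of the 40 was lower, where 0.613% of genes were lower DEGs and 0.0634% were lower with an adjusted p under 0.05. The median log2 change of the 36 members tested was 0.60, beside -0.01 for all genes.

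Irf8 was at 1.55, 1.38, 1.31, 1.82 and 1.74 FPKM in Hdac1 cKO mice and at 3.92, 8.03, 5.27, 9.29 and 5.32 FPKM in compound mice. The lowest compound mouse had more than the highest Hdac1 cKO mouse, and the difference was 1.48 ± 0.19 (SE, limma adjusted p = 0.000874). Ifi35, which binds the interferon-induced protein NMI, was at 1.59, 0.991, 2.22, 0.71 and 2.14 FPKM in Hdac1 cKO and at 10.6, 4.10, 5.98, 7.22 and 6.36 FPKM in compound mice. The groups lay apart, at 1.63 ± 0.23 (limma adjusted p = 0.00191). Trim30a, a tripartite motif protein that restrains Toll-like receptor signalling, was at 0.514, 0.857, 0.960, 1.38 and 0.731 FPKM in Hdac1 cKO and at 3.34, 2.83, 6.85, 3.88 and 1.85 FPKM in compound mice. These groups also lay apart, at 1.26 ± 0.24 (limma adjusted p = 0.0142). Ifitm3, a membrane protein that blocks viral fusion, was at 58.6, 57.5, 76.6, 77.1 and 70.9 FPKM in Hdac1 cKO and at 215, 226, 141, 440 and 121 FPKM in compound mice. Every compound mouse was above every Hdac1 cKO mouse, at 1.59 ± 0.31 (limma adjusted p = 0.0412).

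Of the other 14 DEGs, Ifi27l2a, of the ISG12 family, had the largest change (3.01 ± 0.89), and Parp9, a partner of the E3 ligase Dtx3l, the smallest (0.61 ± 0.24). Between them lay Bst2, the tetherin that holds budding virus at the membrane (1.67 ± 0.49), the secreted glycoprotein gene Lgals3bp (1.62 ± 0.40), the receptor transporter gene Rtp4 (1.43 ± 0.34) and Usp18, the protease that removes ISG15 (1.00 ± 0.32). In all, 9 of 40 members, tested or not, had groups that did not overlap, against 2.44% of the genes tested. Without compound mouse 4, the members called numbered 15, all of them among the 18, and those with an adjusted p under 0.05 numbered 5, while the difference of Ifi27l2a went from 3.01 to 2.31 and that of Oasl2, an OAS-like protein that binds double-stranded RNA, from 1.06 to 0.63. Of the 18, Irf7, the factor that amplifies interferon production, Zbp1 and Oasl2 averaged 0.229, 0.227 and 0.293 FPKM in Hdac1 cKO mice and reached the filter only through the compound mice (1.199, 2.40 and 2.31 FPKM), which leaves 15. The call of Irf7 ended without Hdac1 cKO mouse 1, 4 or 5 or compound mouse 2 or 3, and without compound mouse 4 it was below the filter. The call of Parp9 ended without Hdac1 cKO mouse 3 or 5 or compound mouse 1 or 4, that of Gbp2 without compound mouse 3 or 4, and that of the ISG15 ligase gene Herc6 without Hdac1 cKO mouse 4. With only the mice under 2000 FPKM of Ttr, all 5 Hdac1 cKO and 4 compound mice, 19 were DEGs, 17 of them among the 18. Microglial markers summed to 164 to 186 FPKM in Hdac1 cKO and 379 to 636 FPKM in compound mice, with 6 of 10 DEGs, higher, and none at 0, and 2 of 7 astrocyte markers were higher DEGs. Their part in the rise of the members was not tested.

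**Figure D3:**
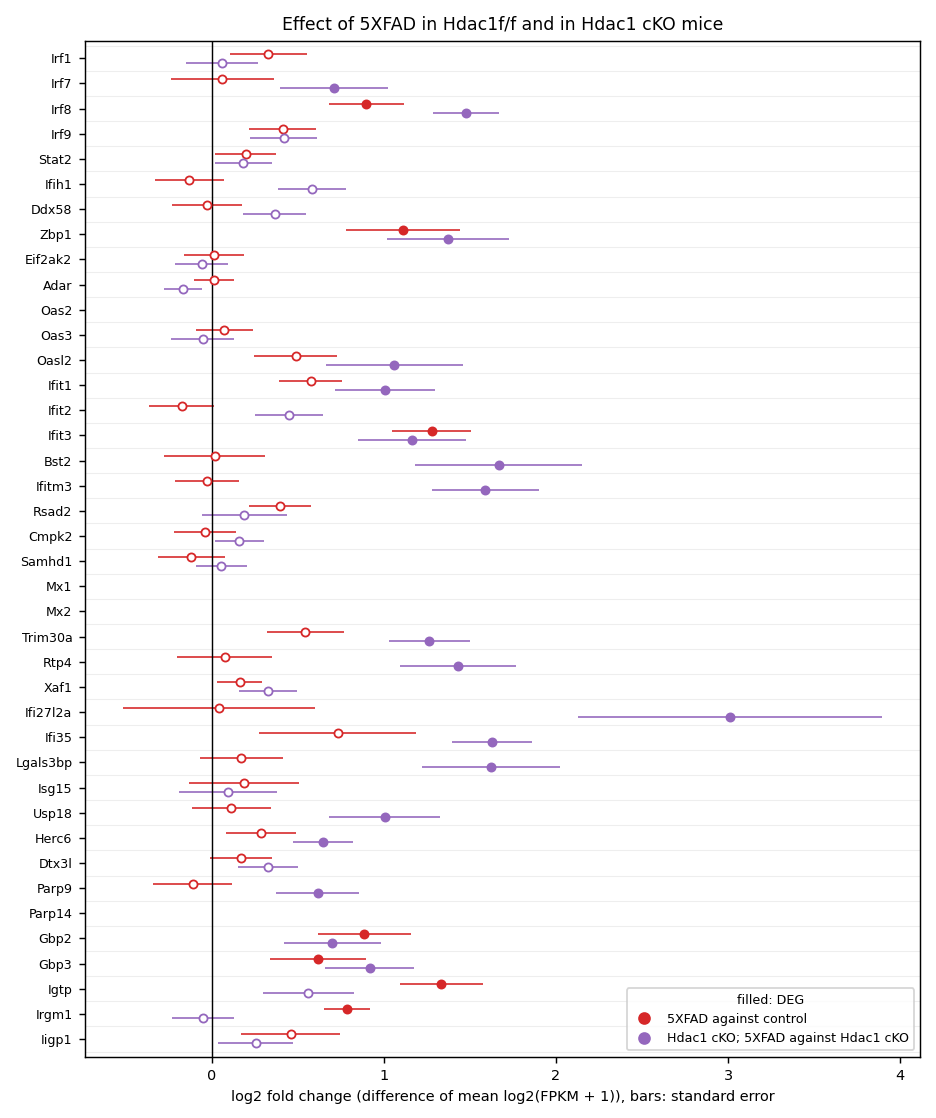
Log2 fold change (dot) ± SE (bar) of each tested member for 5XFAD against control and for compound against Hdac1 cKO mice, on the log2(FPKM + 1) scale, with filled dots for DEGs. The plot shows 7 filled dots in the first comparison and 18 in the second, all to the right of 0.

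Between the 2 measurements of 5XFAD, 5 members were DEGs in both, namely Irf8, Zbp1, Ifit3, Gbp2 and Gbp3, although the call of Gbp3 in the first and that of Gbp2 in the second did not hold without single mice and Zbp1 reached the filter in both only through the mice with 5XFAD. They were 5 of the 7 DEGs in mice with HDAC1 and 5 of the 18 in mice without it. Over all genes, the shared DEGs were 68.5% of the 248 and 40.8% of the 417 higher DEGs. Irgm1 and Igtp passed in the mice with HDAC1 (0.78 and 1.33) and not in those without it (-0.05 and 0.56), while Ifitm3, Ifi35 and Trim30a passed in the mice without HDAC1 (1.59, 1.63 and 1.26) and not in those with it (-0.03, 0.73 and 0.54). Whether these effects differed was tested by the interaction, given after the comparisons for loss of Hdac1.

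Compound mice were also compared with controls, a comparison that shares the controls with 5XFAD against control and the compound mice with the preceding one. Again 7 of 40 members were DEGs, higher, against 2.22% of all genes tested, and 1, Irf8, had an adjusted p under 0.05, against 0.627%. No member was lower, where 2.02% of genes were lower DEGs and 0.0348% were lower with an adjusted p under 0.05. Wholly above the controls lay 5 of 40, among them Mx2, which was not tested, where 2.75% of the genes tested did. Irf8, at 3.92 to 9.29 FPKM in compound mice, was above all controls (1.83 to 2.56 FPKM) by 1.16 ± 0.22 (limma adjusted p = 0.0351). Zbp1, listed at 0, 0, 0.502 and 0.362 FPKM in controls, was at 1.67, 1.03, 5.08, 3.55 and 0.653 FPKM in compound mice (1.33 ± 0.36, limma adjusted p = 0.172), and it too reached the filter only through the latter. Trim30a was at 1.72, 1.18, 0.977 and 1.76 FPKM in controls (0.91 ± 0.26, limma adjusted p = 0.200). For these genes no compound mouse fell into the range of the controls. Ifit3, at 5.02, 7.60, 4.31, 12.2 and 2.21 FPKM in compound mice, overlapped with the controls through compound mouse 5 (1.21 ± 0.35, limma adjusted p = 0.211). Without compound mouse 4, 5 members were DEGs, Gbp2 (0.55) and Ifi35 (1.03) having lost their call. That of Gbp2 also ended without control mouse 3, and that of Ifi35 in 6 of 9 fits that left out 1 mouse (0.55 to 1.34), namely without control mouse 1 or 2 or compound mouse 1, 3, 4 or 5. Without compound mouse 4 the adjusted p of Irf8 no longer passed 0.05, as also without any 1 control or compound mouse 2 or 5. With the choroid plexus markers as a covariate 4 of the 7 kept their call, and with libraries under 2000 FPKM of Ttr, where control mouse 1 alone stands for the controls and the spread comes from all groups, 3 did. Microglial markers were higher in compound mice, with 6 of 10 DEGs and sums of 379 to 636 FPKM against 157 to 192 FPKM in controls, as were 2 of 7 astrocyte markers, which summed to 1133 to 1274 FPKM against 932 to 1047 FPKM. Choroid plexus markers were lower, with 4 of 6 DEGs. Of 6 endothelial markers 5 were below 0 and 1 above (median -0.17), and 1 was a lower DEG. The part of these cell types in the differences of the members was not tested.

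Loss of Hdac1 without 5XFAD was measured by comparing Hdac1 cKO mice with controls. The members that differed were lower, with Ifitm3, Bst2, Lgals3bp and Ifi27l2a below the lowest control in all 5 Hdac1 cKO mice. By the rule for DEGs 7 of 40 members were lower and 0 higher, against 2.87% and 0.498% of all 14265 genes tested. None had an adjusted p under 0.05 in limma, where 0.147% of genes were lower and 0.00701% higher by that rule. An unadjusted p under 0.05 was found for 9 members and for 1676 of all 14265 genes. The members with an adjusted p under 0.05 numbered 2 without control mouse 1 and 1 without control mouse 2. In all, 9 of 40 members lay wholly below the controls, among them Irf7, which was not tested here (at most 0.549 FPKM in Hdac1 cKO mice, at least 0.628 in controls). Of the genes tested 2.15% did. Wholly above lay 0 members, where 2.08% of the genes tested did. The 34 tested members had a median log2 change of -0.18.

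Ifitm3 was at 152, 94.0, 219 and 182 FPKM in controls, against 57.5 to 77.1 FPKM in Hdac1 cKO mice, lower by -1.18 ± 0.21 on the log2 scale (SE, limma adjusted p = 0.0780). Bst2 was at 5.99, 7.95, 15.5 and 13.4 FPKM in controls and at 0.724, 3.39, 3.35, 4.38 and 3.71 FPKM in Hdac1 cKO mice (-1.52 ± 0.36, limma adjusted p = 0.155). Lgals3bp was at 10.6, 20.8, 29.8 and 31.4 FPKM in controls and at 9.75, 4.38, 10.1, 5.35 and 8.36 FPKM in Hdac1 cKO mice (-1.44 ± 0.34, limma adjusted p = 0.155). Its lowest control, mouse 1, stood just above the highest Hdac1 cKO mouse. Ifi27l2a was at 19.97, 16.1, 73.3 and 53.6 FPKM in controls and at 9.37, 5.85, 1.97, 1.89 and 9.99 FPKM in Hdac1 cKO mice (-2.58 ± 0.64, limma adjusted p = 0.203). The other DEGs were the double-stranded RNA sensor Ifih1 (-0.63), Rtp4 (-0.93) and Parp9 (-0.64), so that 5 of the 13 effectors, 1 of the 11 sensors and 1 of the 6 ISG15 and ADP-ribosylation genes were DEGs. The call of Parp9 ended without control mouse 1 or 3 or Hdac1 cKO mouse 3 or 5 (-0.81 to -0.52 over all 9 fits that left out 1 mouse), that of Ifih1 without control mouse 3 or Hdac1 cKO mouse 2 or 4 (-0.74 to -0.52), and that of Rtp4 without control mouse 4. Of the 5 GTPases and the 5 transcription factors, 0 were DEGs.

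**Figure D4:**
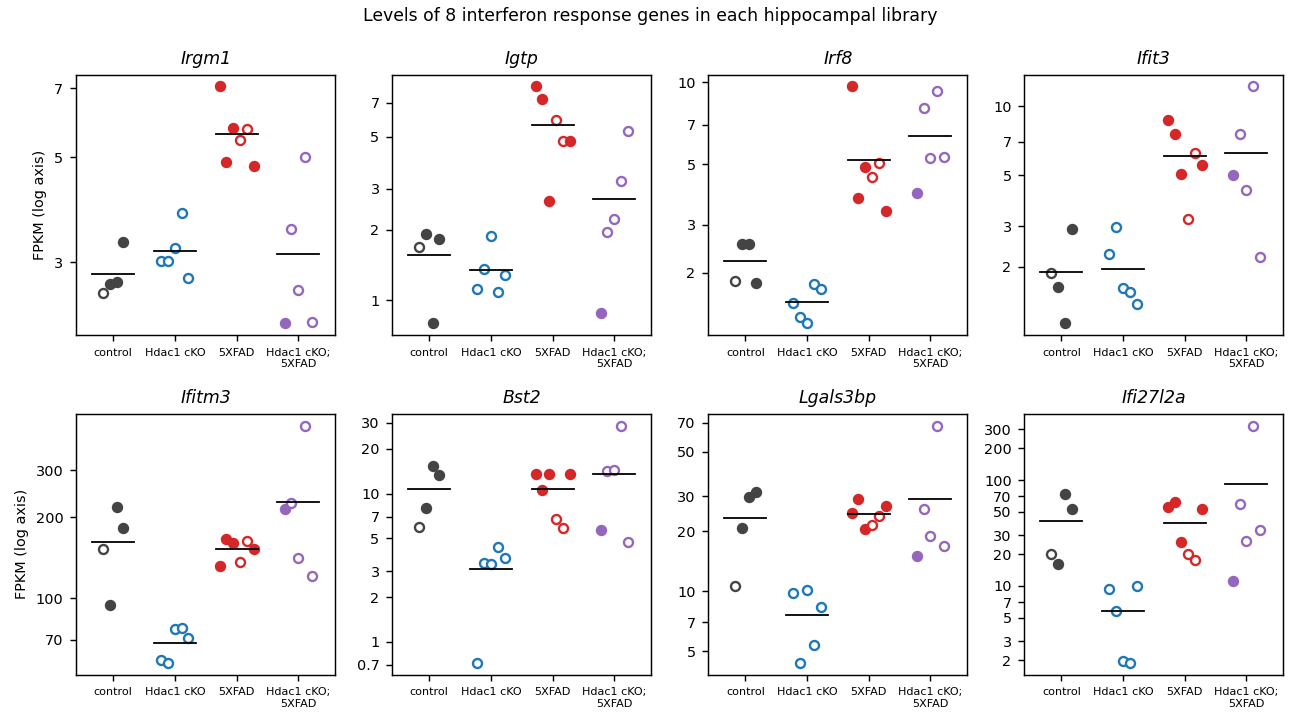
FPKM (log axis) of Irgm1, Igtp, Irf8, Ifit3, Ifitm3, Bst2, Lgals3bp and Ifi27l2a in each hippocampus, by group. Filled points are libraries with Ttr of 2000 FPKM or more, open points are below, and the line is the group mean. For Ifitm3 the Hdac1 cKO mice (57.5 to 77.1 FPKM) lie below all other mice, and for Irgm1 the 5XFAD mice (4.79 to 7.06 FPKM) lie above controls and Hdac1 cKO mice.

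Choroid plexus markers moved with the same groups. All 6 (Ttr, Kl and others) were DEGs, lower in Hdac1 cKO mice, with summed levels of 590 to 20462 FPKM in controls and 59.9 to 1633 FPKM in Hdac1 cKO mice, where Kcnj13 was listed at 0 in 2 of the 5 mice and Clic6 in 1. Control mouse 1, the only control under 2000 FPKM of Ttr (576 FPKM), had 152 FPKM of Ifitm3, 5.99 of Bst2, 10.6 of Lgals3bp and 19.97 of Ifi27l2a, each above all 5 Hdac1 cKO mice. Its Ttr still exceeded the median of the knockouts (105 FPKM), although their highest value was 1608 FPKM. Control mouse 1 was therefore not matched to most of them for choroid plexus RNA. With the mean log2(FPKM + 1) of the choroid plexus markers as a covariate, Ifitm3 was at -1.11 and stayed a DEG, as did Parp9 at -1.10, while Bst2 (-0.73), Lgals3bp (-0.39), Ifi27l2a (-1.33), Rtp4 (-0.10) and Ifih1 (-0.44) were no longer DEGs. In that fit 6 members were lower and 2 higher, of which Ifitm3 and Parp9 were the 2 among the 7. Of all 14265 genes, 399 were lower and 411 higher DEGs in that fit, where 409 and 71 were without the covariate. With only mice under 2000 FPKM of Ttr, which leaves control mouse 1 alone in its group and takes the spread from all groups, 1 of the 7, Parp9 (-0.98), stayed a DEG and Ifitm3, at -1.16, did not. The covariate itself differed between the groups, with a mean of 5.7 in controls and 2.1 in Hdac1 cKO mice. The fit therefore cannot fully separate it from genotype for any of the 7 calls, kept or lost. The part of choroid plexus RNA in the 7 calls was not tested further. Microglial markers did not fall with the members, with 0 of 10 DEGs and sums of 157 to 192 FPKM in controls and 164 to 186 FPKM in Hdac1 cKO mice.

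Loss of Hdac1 on the 5XFAD background was measured by comparing compound with 5XFAD mice, which share no mouse with the preceding comparison. Only the 2 GTPase genes Irgm1 and Igtp were DEGs among the 40, both lower, against 0.593% of all 14326 genes tested, and 0 were higher, against 0.691%. No member had an adjusted p under 0.05 in limma, where 0.00698% of genes were lower by that rule. An unadjusted p under 0.05 was found for 2 members and for 947 of all 14326 genes. No member had groups that did not overlap, where 0.391% of genes lay wholly above and 0.216% wholly below. Irgm1 was at 2.23, 3.52, 2.61, 5.01 and 2.24 FPKM in compound mice, where only mouse 4 reached the range of the 5XFAD mice (4.79 to 7.06 FPKM), and the difference was -0.71 ± 0.17 (SE, unadjusted p = 0.000888, limma adjusted p = 0.607). Igtp was at 0.884, 1.96, 2.24, 3.24 and 5.29 FPKM in compound mice, of which mice 4 and 5 fell within the range of the 5XFAD mice (2.66 to 8.22 FPKM), at -0.88 ± 0.29 (unadjusted p = 0.00912, limma adjusted p = 0.718). Both kept their call without compound mouse 4 (-0.86 and -0.96), without 5XFAD mouse 1 (-0.66 and -0.77) and with the libraries under 2000 FPKM of Ttr (-0.64 and -0.67). The next 2 members by p were Xaf1, a pro-apoptotic protein gene, at 7.93, 10.3, 8.49, 14.5 and 8.95 FPKM in compound mice against 6.26 to 8.81 FPKM in 5XFAD mice (median 7.76), and Ifit2, at 1.72, 3.09, 2.61, 2.63 and 1.51 FPKM against 0.928 to 2.62 FPKM (median 1.70). Neither passed the test. When compound mouse 5 was left out, 2 other members, Ifitm3 and Rtp4, were higher DEGs. Of the 10 microglial markers 9 were above 0 on the log2 scale (median 0.30), 4 had an unadjusted p under 0.05 in limma and 0 were DEGs, and their sums did not overlap, at 310 to 374 FPKM in 5XFAD and 379 to 636 FPKM in compound mice. Among the 7 astrocyte markers the water channel gene Aqp4 was a higher DEG (0.91). Of the 6 endothelial markers 3 had an unadjusted p under 0.05, all lower (median of the 6 -0.23), and 0 were DEGs. All 6 choroid plexus markers were below 0 (median -1.61), with 0 DEGs and overlapping sums. Their part in the differences of the members was not tested. Of the 2 lower DEGs here and the 7 in Hdac1 cKO against control, 0 were shared, where over all genes the shared lower DEGs were 14.1% of the 85 here and 2.93% of the 409 there.

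**Figure D5:**
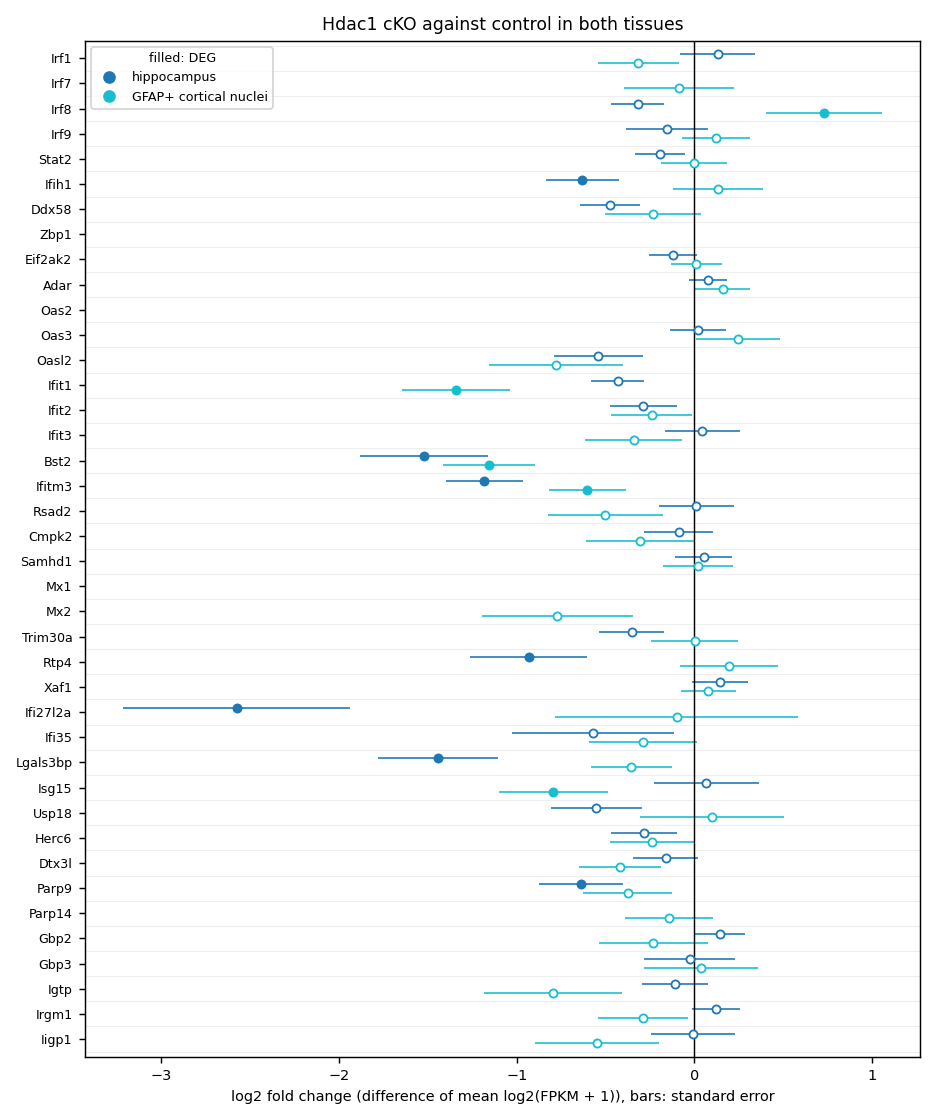
Log2 fold change (dot) ± SE (bar) of each tested member for Hdac1 cKO against control in the hippocampus and in GFAP+ nuclei, on the log2(FPKM + 1) scale, with filled dots for DEGs. The 7 filled dots of the hippocampus lie to the left of 0, and of the 5 in GFAP+ nuclei 4 lie to the left and 1, Irf8, to the right.

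The interaction of the 2 genotypes asks whether the effect of 5XFAD differed between mice with and without HDAC1. By the thresholds for DEGs it was positive for 10 of the 40 members, against 2.69% of all 14389 genes tested, and negative for 1, against 1.38%. No member and no other gene had an adjusted p under 0.05 in limma. An unadjusted p under 0.05 was found for 11 members and for 1290 of all 14389 genes. Of the members Ifitm3 had the smallest p, with mean levels of 162 ± 52.9 FPKM in controls (SD, n = 4), 68.1 ± 9.53 in Hdac1 cKO (n = 5), 152 ± 14.5 in 5XFAD (n = 6) and 229 ± 126 in compound mice (n = 5). The 5XFAD mice lay between 132 and 167 FPKM (median 157), and the values of the other mice are given in the comparisons for Hdac1 cKO. Its interaction was 1.62 ± 0.38 (SE, unadjusted p = 0.000448, limma adjusted p = 0.297). Irgm1 had the opposite sign, at -0.84 ± 0.22 (unadjusted p = 0.000943, limma adjusted p = 0.297), with 5XFAD mice above and the other 3 groups near 3 FPKM (2.83 ± 0.33 in controls, 3.17 ± 0.39 in Hdac1 cKO and 3.12 ± 1.18 in compound mice). The Hdac1 cKO mice were at 3.02, 3.02, 3.22, 3.82 and 2.77 FPKM. Rtp4 followed at 1.35 ± 0.47 (limma adjusted p = 0.409). It was at 2.02, 1.53, 3.18 and 4.12 FPKM in controls and at 0.893, 0.697, 0.625, 0.120 and 2.95 FPKM in Hdac1 cKO mice, of which only mouse 5 reached the controls. With 5XFAD the groups overlapped, at 1.25 to 4.47 FPKM (median 3.28) in 5XFAD mice and 3.05, 4.55, 5.94, 6.50 and 1.79 FPKM in compound mice. Lgals3bp was at 1.45 ± 0.50 (limma adjusted p = 0.410), and its compound mice, at 15.1, 25.8, 18.9, 67.6 and 16.9 FPKM, were above all Hdac1 cKO mice, while the 5XFAD mice lay between 20.6 and 29.1 FPKM (median 24.3). The interactions of Igtp and Ifi35, which had passed in 1 of the 2 measurements of 5XFAD, did not pass, although Igtp did, as a second negative member, without control mouse 2, 5XFAD mouse 3 or compound mouse 4 or 5, and Ifi35 did without control mouse 1. The 10 positive members comprised 6 effectors, 2 sensors and 2 ISG15 and ADP-ribosylation genes. All 6 choroid plexus markers were positive too (median 1.75), with 0 passing. Of 10 microglial markers 7 were positive (median 0.13), and 1 passed, with a negative sign. The part of these cell types in the interactions of the members was not tested. With the choroid plexus markers as a covariate 8 of the 11 members kept their call and Irf8 was added. The positive members numbered 6 without compound mouse 4, 6 without 5XFAD mouse 2 and 5 with libraries under 2000 FPKM of Ttr, which leaves 1 control. Without 5XFAD mouse 1 they numbered 12, Irf7 and Irf8 being added. In 20 fits that each left out 1 mouse, Trim30a and Parp9 each lost their call in 12, Usp18 in 11 and Ifit2 in 9, and the other 7 members kept theirs. With the Ttr limit the interaction of Lgals3bp was 0.76 and no longer passed, and that of Ifitm3 was 1.60 and did.

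In GFAP+ nuclei the effect of Hdac1 loss was measured in nuclei sorted for an astrocyte protein. The 7 astrocyte markers (Gfap, Aqp4 and others) summed to 2650 to 3258 FPKM there and the 6 neuronal markers to 188 to 288 FPKM, against 932 to 1274 and 1455 to 1838 FPKM in the hippocampi. Here 4 of the 40 members were lower DEGs, namely Bst2, Ifit1, Ifitm3 and Isg15, and 1, Irf8, was a higher DEG, against 1.34% and 1.24% of all 15070 genes tested. None had an adjusted p under 0.05 in limma, where 0.0133% of genes were higher by that rule. An unadjusted p under 0.05 was found for 5 members and for 709 of all 15070 genes. Bst2 was at 13.0, 17.2 and 13.5 FPKM in controls and 4.89, 3.83, 6.88 and 9.29 FPKM in Hdac1 cKO mice (-1.15 ± 0.26, unadjusted p = 0.00107, limma adjusted p = 0.978). Ifit1, which binds viral RNA that lacks a methylated cap, was at 11.9, 4.06 and 6.16 FPKM in controls and 2.08, 1.67, 2.34 and 2.19 FPKM in Hdac1 cKO mice (-1.34 ± 0.30, unadjusted p = 0.00114, limma adjusted p = 0.978). Ifitm3 was at 57.3, 62.5 and 54.9 FPKM in controls and 34.4, 25.97, 44.7 and 51.6 FPKM in Hdac1 cKO mice (-0.60 ± 0.21, limma adjusted p = 0.984). In these 3 genes no Hdac1 cKO value reached the controls. Isg15 overlapped, at 8.38, 9.15 and 4.31 FPKM against 1.99, 5.28, 4.03 and 3.70 FPKM (-0.80 ± 0.31, limma adjusted p = 0.984). In all, 5 of 40 members, tested or not, lay wholly below the controls and 1 wholly above, against 2.75% and 2.97% of the genes tested. Irf8 was at 0.835, 2.48 and 0.587 FPKM in controls and 1.64, 2.42, 3.80 and 2.86 FPKM in Hdac1 cKO mice. Its call ended without control mouse 1 or 4 or Hdac1 cKO mouse 2, 3 or 4, that of Isg15 without control mouse 1 or 3 or Hdac1 cKO mouse 1, and that of Ifitm3 without control mouse 3 or Hdac1 cKO mouse 1 or 2. Bst2 and Ifit1 kept theirs in all 16 alternatives. Microglial markers summed to 50.1 to 84.6 FPKM in control and 38.7 to 95.7 FPKM in Hdac1 cKO nuclei, with none at 0 and 0 of 10 DEGs. Endothelial markers summed to 66.8 to 98.5 FPKM in control and 43.8 to 78.3 FPKM in Hdac1 cKO nuclei. Of the 6, 3 were above 0 and 3 below on the log2 scale (median -0.06). The tight junction gene Cldn5 alone was a DEG, lower (-0.68), at 24.9 to 43.2 FPKM in controls and 15.6 to 22.2 FPKM in Hdac1 cKO mice. The part of endothelial cells in the lower values of the members was not tested. Choroid plexus markers summed to 117 to 270 FPKM in the Hdac1 cKO nuclei against 18.8 to 155 FPKM, with overlap. Of the 6, 5 were above 0, of which Kl was at 0.07, and 1, Clic6, was below (-0.43). The DEGs were 2, Ttr and Folr1, both higher. With these markers as a covariate Bst2 and Ifit1 stayed DEGs while Ifitm3 (-0.64), Isg15 (-0.38) and Irf8 (0.89) did not.

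The 2 members lower in both Hdac1 cKO comparisons, hippocampus and GFAP+ nuclei, were Bst2 and Ifitm3, which were 2 of the 7 lower DEGs in hippocampus and 2 of the 4 in nuclei. Over all genes the shared lower DEGs were 12, or 2.93% of the 409 in hippocampus and 5.94% of the 202 in nuclei.

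Ligands, receptors and signalling genes of the pathway, 31 in all, of which 20 to 22 reached the filter, gave 0 to 2 DEGs in each comparison. None of the 7 interferon genes listed passed the filter in any comparison. Ifnb1 was listed at 0 in all 27 libraries, and Ifng was above 0 in 1, 5XFAD mouse 1, at 0.339 FPKM. None of the 4 receptor subunits and none of the 4 kinases and signal transducers was a DEG in any comparison. In 5XFAD mice against controls 2 of the 21 tested were higher, against 1.72% of all genes, the RNA-sensing receptor gene Tlr7 (0.67) and the exonuclease gene Trex1 (0.61). In compound mice against controls Irf5 (1.09) and Tlr7 (0.62) were higher, 2 of 21 where 2.22% of genes were. Against Hdac1 cKO mice the same 2 genes were at 0.96 (limma adjusted p = 0.0446) and 0.79 (limma adjusted p = 0.0384), 2 of 21 where 1.42% of genes had an adjusted p under 0.05. There Tlr7 averaged 0.335 FPKM in Hdac1 cKO mice and reached the filter only through the compound mice (1.33 FPKM). The interaction of Trex1 was -0.77, 1 of 21 where 1.38% of genes were negative. None of the 31 was a DEG in Hdac1 cKO against control, in compound against 5XFAD or in GFAP+ nuclei. Those with an unadjusted p under 0.05 in limma numbered 2, 0 and 0. Of all genes, 1676 of 14265, 947 of 14326 and 709 of 15070 had such a p.

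Of 39 further interferon-stimulated genes in the files, 24 were tested in 5XFAD against control, and 4 were higher and 1 lower, against 1.72% and 1.23% of all genes. The immunoproteasome subunit gene Psmb8 was at 1.64 (limma adjusted p = 7.16e-05), its partner Psmb9 at 1.10 (0.0513), the chemokine gene Cxcl10 at 1.31 (0.0352), the lysosomal reductase gene Ifi30 at 1.07 (0.0257) and Nmi at -0.60. In compound against Hdac1 cKO mice 5 of 23 were higher (2.94% of all genes), among them Psmb8 (1.70, limma adjusted p = 0.0013) and Cxcl10 (1.43, limma adjusted p = 0.00278), with Psmb9 (1.33), Slfn2 (0.74) and Ifi30 (0.65). Of these, Cxcl10 averaged 0.465 FPKM in Hdac1 cKO mice and reached the filter only through the compound mice (3.02 FPKM). In compound mice against controls 3 of 25 were higher (2.22% of all genes), Psmb8 (1.38), Cxcl10 (0.92) and Ifi30 (0.91). Against 5XFAD mice 1 of 26 was lower (0.593%), the peptide transporter gene Tap1 (-0.68). In Hdac1 cKO against control 3 of 23 were lower (2.87%), Trim34a (-0.67), Tor3a (-0.64) and Psmb9 (-0.62). Of these, Trim34a averaged 0.438 FPKM in Hdac1 cKO mice and reached the filter only through the controls (1.36 FPKM). In GFAP+ nuclei 2 of 27 were lower (1.34%), Trim34a (-0.79) and Sp100 (-0.76). The interaction was positive for 3 of 23 (2.69%), namely Slfn2 (0.93), Nmi (0.79) and Tor3a (0.60).

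Across the 20 hippocampi, the genes outside the list whose log2(FPKM + 1) followed the mean of the 40 members most closely were sought by Pearson's r, as a description over mice that share groups and library depth. Among the 10 highest were the class I MHC genes H2-K1 (0.92) and H2-D1 (0.88), the intermediate filament gene Vim (0.92), the complement genes Serping1 (0.91) and C4b (0.88), Fyb (0.89), Trf (0.87), Neat1 (0.87) and the reactive astrocyte gene Serpina3n (0.85). Members followed the mean of the list to different degrees, with r of 0.88 for Ifit1, 0.87 for Irf8 and 0.85 for Ifit3, down to 0.09 for Irf1 and -0.22 for Adar.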

How the data were processed

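RNA was sequenced from 20 hippocampi and 7 sets of GFAP+ nuclei. The authors collapsed duplicate reads of the hippocampal digital gene expression libraries, aligned them with TopHat and deposited FPKM values per gene from Cufflinks 2.0.0 with the mm9 annotation. The nuclei were amplified with SMART-Seq, and their alignment is not described separately. FPKM divides by length, although reads of the hippocampal libraries come from transcript ends. Fragment totals are not given, so no count model or counting interval was computed. Values were used as deposited, as log2(FPKM + 1). Genes that averaged 0.5 FPKM or more in the mice compared were tested with limma 3.58.1 (R 4.3.3; trend and robust), 2 groups at a time. The interaction used all 20 hippocampi. P-values were adjusted by Benjamini and Hochberg over all genes tested. The fits were tested on simulated data, and Python 3.11.15 was used for the other steps. Members, roles, marker lists and tests were chosen with earlier results of these data known. All 40 members are accounted for. Members whose groups did not overlap were counted over all 40, tested or not, while the shares beside these counts cover tested genes only. Values of every mouse, or the lowest, median and highest of the 6 5XFAD mice, are given for members with an adjusted p under 0.05, or else for those with the 4 smallest p-values. Listed samples not analysed here were 6 ChIP-seq samples and 1 sample of control GFAP+ nuclei. Alternatives were another pseudocount (0.1), filter (none or 1 FPKM) or normalization, limma without trend and robust, all groups in one fit, the ratio of mean FPKM, a replicate block, a choroid plexus covariate and each mouse left out. A gene covered by the rule for genes most like the members is not reported here.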

Additional observations from a re-analysis of the deposited data

Results flagged for a closer look

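Within groups of 4 to 6 mice, 20 of the 200 combinations of a member and a group examined had 1 mouse far from the others. Chance alone gives about 1 in 20 only where values follow a normal distribution, which was not checked for FPKM. In 5 of the 20 (Oas2 in 3 groups and Zbp1 in 2) every other mouse was listed at 0, so that any value above 0 stands apart by construction. Compound mouse 4 was the highest of its group for Ifi27l2a (326 FPKM, the next mouse 59.1), Lgals3bp (67.6, next 25.8), Gbp3 (8.45, next 4.20), Oasl2 (7.57, next 1.29) and Oas2 (0.262, next 0), and compound mouse 2 was the lowest for Herc6, an ISG15 ligase gene (1.11 FPKM, next 1.67). 5XFAD mouse 1 was the highest for Irf8 (9.66, next 5.04) and Samhd1, a nucleotide hydrolase gene (3.42, next 1.94), and 5XFAD mouse 5 for Oas2 (0.407, next 0). Among Hdac1 cKO hippocampi, mouse 1 was the lowest for Bst2 (0.724, next 3.35), and the highest were mouse 3 for Rsad2, the antiviral enzyme viperin (1.34, next 0.640), mouse 4 for Zbp1 (1.14, next 0) and mouse 5 for Rtp4 (2.95, next 0.893). Control mouse 1 was the highest for Oas2 (0.251, next 0). In GFAP+ nuclei of Hdac1 cKO mice, mouse 4 was the highest for Parp9 (2.43, next 1.35), Mx1 (0.637, next 0.0883) and Zbp1 (0.127, next 0), mouse 3 was the highest for Samhd1 (14.8, next 9.56) and the lowest for Parp14 (0.618, next 1.14), and mouse 1 was the highest for Herc6 (5.62, next 3.42).

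The effect of 5XFAD differed between mice with and without HDAC1, at an unadjusted p under 0.05 for the interaction and a fold of at least 1.5, for 11 members. Of these, 10 had a positive interaction on the log2 scale: Ifi27l2a (2.97), Bst2 (1.65), Ifitm3 (1.62), Lgals3bp (1.45), Rtp4 (1.355), Usp18 (0.891), Parp9 (0.727), Trim30a (0.720), Ifih1 (0.713) and Ifit2 (0.623). Irgm1 had a negative one (-0.837). Their limma adjusted p-values lay between 0.297 and 0.548. Of 20 fits that each left out 1 mouse, Trim30a and Parp9 no longer passed in 12, Usp18 in 11 and Ifit2 in 9. All 4 failed without 5XFAD mouse 2 or compound mouse 4, and Trim30a, Parp9 and Usp18 also without control mouse 1, Hdac1 cKO mouse 1 or 5 or 5XFAD mouse 4.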

How the results depend on the processing

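Few members reached an adjusted p under 0.05, and members with low FPKM rest on few fragments. Of 1262 values of single called members under other settings, 1120 kept their call, 141 lost it and 1 reversed, Gbp3 in 5XFAD against control, at -0.11 with only libraries under 2000 FPKM of Ttr (a choice made after seeing the data, which leaves 1 control and takes the spread from all groups). In Hdac1 cKO against control, higher DEGs were 2 with the choroid plexus covariate, where 411 of all 14265 genes were higher. With libraries under 2000 FPKM of Ttr, which leaves 1 control, the median log2 change of the members was -0.22. In 5XFAD against control, members with an adjusted p under 0.05 were 1 with the replicate block, 0 with the choroid plexus covariate and 1 with the Ttr limit. In compound against control, higher DEGs were 4 with the covariate and 3 with the Ttr limit, and members with an adjusted p under 0.05 were 0 without filter, 0 without trend and robust, 2 with all groups in one fit, 0 with the covariate and 2 with the Ttr limit. In compound against 5XFAD, higher DEGs were 2 with the Ttr limit. In compound against Hdac1 cKO, members with an adjusted p under 0.05 were 10 with all groups in one fit. The interaction had 5 positive members with the Ttr limit and 2 negative ones with quantile normalization. In GFAP+ nuclei higher DEGs were 0 without filter, at 1 FPKM, without trend and robust, and with the covariate. Mice with the same number did not deviate together (correlations from -0.113 to 0.078), so the numbers do not pair the mice, and the replicate block moved no other count of members by over 1.5 times. With each mouse left out in turn, lower DEGs of Hdac1 cKO against control numbered 6 to 8, and members with an adjusted p under 0.05 numbered 0 to 2 (2 without control mouse 1, 1 without control mouse 2). For 5XFAD against control the ranges were 6 to 10 higher DEGs and 1 to 4 members with an adjusted p under 0.05 (1 without control mouse 3). For compound against control they were 5 to 8 and 0 to 1 (0 without any 1 control or compound mouse 2, 4 or 5). For compound against 5XFAD they were 0 to 2 higher (2 without compound mouse 5) and 2 lower. For compound against Hdac1 cKO they were 15 to 19 higher and 2 to 8 with an adjusted p under 0.05 (2 without Hdac1 cKO mouse 1, 8 without compound mouse 5). The interaction had 6 to 12 positive members (6 without 5XFAD mouse 2 or compound mouse 4) and 1 to 2 negative. GFAP+ nuclei had 0 to 1 higher and 3 to 5 lower DEGs, with 0 higher without control mouse 1 or 4 or Hdac1 cKO mouse 2, 3 or 4. The causes of these moves were not tested. Except where stated, the counts over all genes in these settings are not given, so a move of the members is not set against that of all genes. No setting moved the median of all genes by over 0.05 on the log2 scale.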

Other observations

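In the GFAP+ nuclei the highest value of a member was spread over the 7 libraries, with between 3 and 10 of the 40 members highest in any 1 library.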
